A study of Rattus norvegicus with 32 samples.

Results

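The angiopoietin, Tie and apelin genes were followed in the RNA of rat liver sinusoidal endothelial cells (LSECs), the cells that line the capillaries of the liver. They were chosen by name and by no rule on measured values, though with earlier results of these data known. They are the ligands Angpt1 (ENSRNOG00000005854) and Angpt2 (ENSRNOG00000016696), the receptors Tek (ENSRNOG00000008587) and Tie1 (ENSRNOG00000020173), the phosphatase Ptprb (ENSRNOG00000055293), the ligand Apln (ENSRNOG00000003984), its receptor Aplnr (ENSRNOG00000009227), and Esm1 (ENSRNOG00000010797). They make up 8 of the 32623 genes counted. The study asked how the LSEC transcriptome alters as chronic liver disease advances. The 32 libraries used here come from its CCl4 and TAA experiments in rats, and its bile duct ligation model is not analysed here.

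In the first experiment, male Wistar Han rats inhaled carbon tetrachloride (CCl4), a hepatotoxin, and had phenobarbital in their drinking water. The LSEC libraries comprise 6 of untreated healthy rats, 5 after 2 weeks of CCl4 (acute injury), 5 after 6 weeks (moderate fibrosis) and 6 of cirrhosis after 12 to 14 weeks. Whether the healthy rats also drank phenobarbital, and the age of the rats when cells were taken, are not given in the sources used here. In the second experiment, thioacetamide (TAA), another hepatotoxin, was injected into some rats and saline into others, and the labels call 5 libraries control and 5 TAA control. The labels name the strain behind these 10 libraries as Wistar Han and the study's design text names Sprague-Dawley. Which of both groups received TAA was not settled from the labels and the text, so each difference between them is given by label, as the group labelled TAA control minus the group labelled control. In both models, LSECs were isolated several days after the last dose of toxicant.

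Angpt1 activates the receptor Tie2, the product of Tek, and keeps vessels quiescent, while Angpt2 blocks or partly activates the same receptor depending on context. Tie1 is the co-receptor of Tie2 without a high-affinity ligand of its own, and Ptprb encodes VE-PTP, a phosphatase that switches Tie2 off. Apelin, from Apln, signals through the G protein-coupled receptor Aplnr, and Apln and Esm1 (endocan, a secreted proteoglycan) are known as markers of endothelial tip cells, the cells that lead a vascular sprout.

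The RefSeq table at hand held an upstream sequence for 3 of the 8 genes, namely Tie1, Apln and Esm1. Their 250 bases before the gene start (assembly GRCr8, 5′ to 3′ on the strand of the gene) are shown because Tie1 was lower, and Apln and Esm1 higher, than in health at 2 and 6 weeks, with matches to 5 motifs in capitals. The intervals are chr5:137304982-137305231 on the minus strand for Tie1, chrX:132091247-132091496 on the minus strand for Apln and chr2:46609003-46609252 on the plus strand for Esm1.
Tie1: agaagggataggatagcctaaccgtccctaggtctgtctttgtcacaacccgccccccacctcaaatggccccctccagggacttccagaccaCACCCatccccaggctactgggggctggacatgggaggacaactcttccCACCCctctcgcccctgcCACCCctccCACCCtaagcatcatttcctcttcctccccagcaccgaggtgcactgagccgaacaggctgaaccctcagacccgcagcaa
Apln: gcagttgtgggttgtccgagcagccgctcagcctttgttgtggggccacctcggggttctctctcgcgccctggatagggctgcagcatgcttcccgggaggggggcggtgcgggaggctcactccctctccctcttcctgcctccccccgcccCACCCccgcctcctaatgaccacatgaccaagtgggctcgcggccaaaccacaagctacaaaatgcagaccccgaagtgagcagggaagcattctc
Esm1: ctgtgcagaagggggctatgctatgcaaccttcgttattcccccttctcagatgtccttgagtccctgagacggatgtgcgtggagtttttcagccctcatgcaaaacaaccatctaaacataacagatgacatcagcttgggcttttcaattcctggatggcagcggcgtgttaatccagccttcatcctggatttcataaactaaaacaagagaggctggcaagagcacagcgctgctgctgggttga
The motifs, searched on both strands with no overlap between them, were GTAAACA (a FOXO core), ACGTG (a hypoxia element), TGACTCA or TGAGTCA (an AP-1 site), CCGGAA (an ETS site) and CACCC (a site of KLF factors). Of 33469 rat promoters of this length, 3.21% held the first, 16.6% the second, 4.05% the third, 12.6% the fourth and 49.2% the last. CACCC stood 4 times before Tie1, its first base lying 157, 108, 90 and 81 bases before the start, and once before Apln, at 96 bases. None of the 5 motifs was present in the window of Esm1, and the first 4 were in none of the 3 windows. Only these exact letters were searched, so other forms of the same sites may be present.

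Levels are given in CPM, the reads of a gene relative to the total of its library, scaled with TMM factors, separately for the 22 CCl4 and the 10 TAA libraries, so that they are compared within an experiment and not between genes. Totals were between 25646531 and 46464289 counts per library. A gene was called different at a limma-voom adjusted p under 0.05 (Benjamini-Hochberg, over all genes tested) and a fold-change above 1.5. The study describes its libraries as independent LSEC isolations, while the labels tie no library to a numbered rat, and p-values measure the spread between these libraries.

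Several markers of the cells themselves moved with the stages. The summed level of 12 LSEC markers was 16461 to 28652 CPM in healthy, 2301 to 2910 in acute, 1689 to 2734 in fibrosis and 13793 to 17815 CPM in cirrhotic libraries, with all 12 detected in each group. The sum of 11 immediate-early genes, which rise when cells are handled, was 44498 to 76507 CPM in healthy, 1026 to 2640 in acute, 2060 to 3302 in fibrosis and 20842 to 45663 CPM in cirrhotic libraries. Neither range of the acute and fibrosis libraries touched that of the other groups. Of 7 pan-endothelial markers tested, Tie1 among them, 5 were lower and 1 higher in acute injury, and 5 were lower in fibrosis. Over all genes tested, 37.9% were called lower and 35.5% higher in acute injury, and 34.9% and 35.3% in fibrosis. The median log2 fold change of the list was -3.00 in acute injury, which is Tie1's own value. In fibrosis it was -3.39, beside -3.40 for Tie1. The marker called higher in acute injury was Erg (log2 fold change 1.14, limma-voom adjusted p = 0.0294), while Cdh5 was not called (0.39). In fibrosis neither Erg nor Cdh5 was called, at 0.87 and -0.18. Hepatocyte markers summed to 802 to 19344 CPM in healthy, 93.0 to 817 in acute, 1140 to 4752 in fibrosis and 1912 to 12027 CPM in cirrhotic libraries. Macrophage markers summed to 360.2 to 3736, 74.9 to 220.3, 35.2 to 222 and 849 to 2997 CPM in the same order, with 9 of 9 tested called lower at 2 and at 6 weeks and Timd4 at 0 in all acute and fibrosis libraries. No batch is named in the sources used here, so a batch and a stage cannot be told apart, and the part of these markers in the results below was not tested. In bulk RNA, fewer cells of a type and less RNA per cell cannot be told apart either.

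The 3 stages were each set against the same 6 healthy libraries. In acute injury, 6 of the 8 genes passed the low-count filter; 3 were higher and 3 lower, where 35.5% of 14317 genes tested were called higher and 37.9% lower. In fibrosis, 7 passed, 3 were higher, 3 were lower and 1 was not called, against 35.3% and 34.9% of 14538 genes. In cirrhosis all 8 passed, with 3 higher, 2 lower and 3 not called, against 27.1% and 24.7% of 14789 genes. Angpt1 was too low to be tested at 2 and 6 weeks, and Aplnr at 2 weeks. In cirrhosis both passed the filter by their reads in the cirrhotic libraries, so that being tested already favoured a rise.

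**Figure D1:**
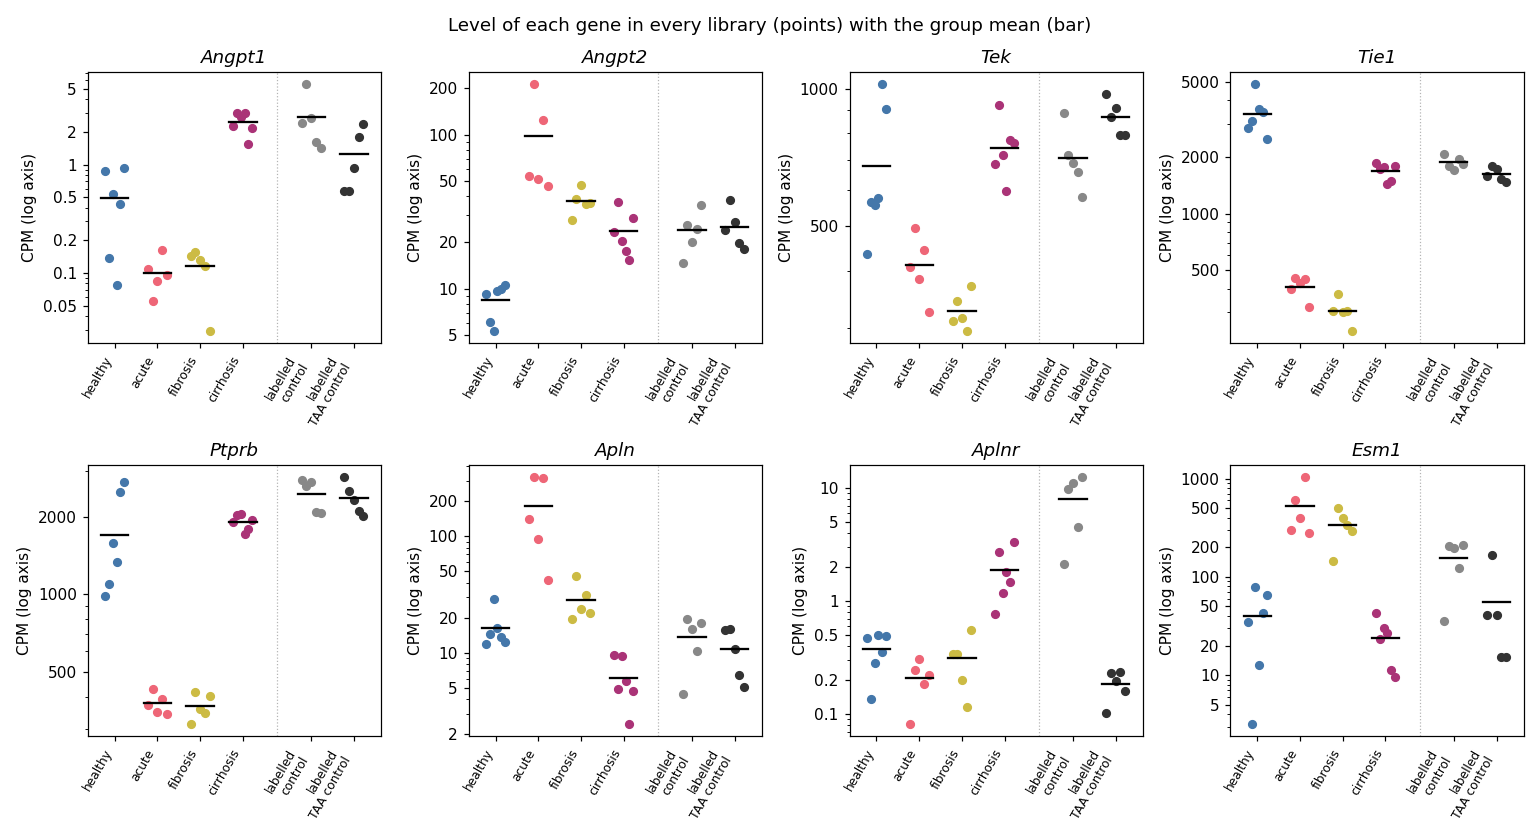
Level of each of the 8 genes in CPM (vertical log axis, own range in each panel) for every library (points) of the 4 CCl4 groups and, right of the dotted line, both groups of the TAA experiment, scaled separately; bars are group means. Tek, Tie1 and Ptprb lie lower in acute and fibrosis libraries than in cirrhotic ones, Angpt2, Apln and Esm1 are highest on average in acute libraries, and Angpt1 and Aplnr are highest in cirrhosis among the CCl4 groups.

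Angpt1, the Tie2 agonist, was scarce in every CCl4 group other than cirrhosis. Healthy libraries held 0.0778 to 0.930 CPM with a median of 0.481 CPM, which are 2 to 36 reads. In acute libraries 1, 2, 3, 4 and 8 Angpt1 was at 0.109, 0.0545, 0.0833, 0.161 and 0.0947 CPM. The fibrosis libraries 12, 13, 15, 16 and 17 held 0.143, 0.156, 0.133, 0.115 and 0.0292 CPM. Cirrhotic libraries ranged from 1.56 to 3.03 CPM (median 2.50 CPM) and all lay above every other CCl4 library. Angpt1 was 6.17-fold higher in cirrhosis than in health (log2 fold change 2.62 ± 0.47 SE, limma-voom adjusted p = 0.00066). Markers of stellate and mural cells, of which 13 of 14 were found and none was at 0 throughout a group, summed to 405 to 1074 CPM in healthy, 1342 to 2152 in acute, 1321 to 1765 in fibrosis and 984 to 2352 CPM in cirrhotic libraries. Reln, which is also on the list of lymphatic endothelium, made up 1305 to 2123 CPM in acute and 1174 to 1570 CPM in fibrosis libraries. Of the list, 9 of 12 tested were called lower and 1 higher in acute injury (median log2 fold change -2.72). In fibrosis 6 were lower and 3 higher (-0.65), and in cirrhosis 9 of 13 were higher (2.03). Of all genes tested, 37.9% were lower and 35.5% higher in acute injury, 34.9% and 35.3% in fibrosis, and 27.1% higher in cirrhosis. Pdgfrb, the receptor that defines mural cells, was at 4.12 to 12.8 CPM in healthy and 15.7 to 55.4 CPM in cirrhotic libraries. The part of these cells in the Angpt1 result was not tested.

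Angpt2, the context-dependent ligand, was higher than in health at every stage, with the highest fitted value in acute injury. Healthy libraries ranged from 5.32 to 10.6 CPM with a median of 9.47 CPM. In acute libraries 1, 2, 3, 4 and 8 it was at 53.8, 213, 51.5, 125 and 46.4 CPM, so that libraries 2 and 4 stood above the other 3. Fibrosis libraries 12, 13, 15, 16 and 17 held 28.0, 38.1, 47.1, 35.3 and 35.9 CPM. In cirrhosis the range was 15.4 to 36.3 CPM (median 21.8 CPM). No library of any stage overlapped the healthy ones. The log2 fold change against health was 3.32 ± 0.43 SE in acute injury (limma-voom adjusted p = 1.9e-05), 2.20 ± 0.21 in fibrosis (adjusted p = 2.05e-06) and 1.46 ± 0.25 in cirrhosis (adjusted p = 0.000461). These are 9.98-fold, 4.59-fold and 2.75-fold rises.

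Within a library, the log2 ratio of Angpt2 to Angpt1 counts averaged 4.43 ± 1.34 (SD, n = 6) in health, 9.53 ± 1.20 (n = 5) in acute injury, 8.27 ± 0.85 (n = 5) in fibrosis and 3.23 ± 0.45 (n = 6) in cirrhosis. The ranges of acute and fibrosis libraries, 8.72 to 11.6 and 7.47 to 9.68, lay above those of healthy (3.27 to 6.64) and cirrhotic ones (2.54 to 3.72). The 1 to 7 Angpt1 reads of each acute and fibrosis library leave these ratios imprecise, and 0.5 was added to each count.

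**Figure D2:**
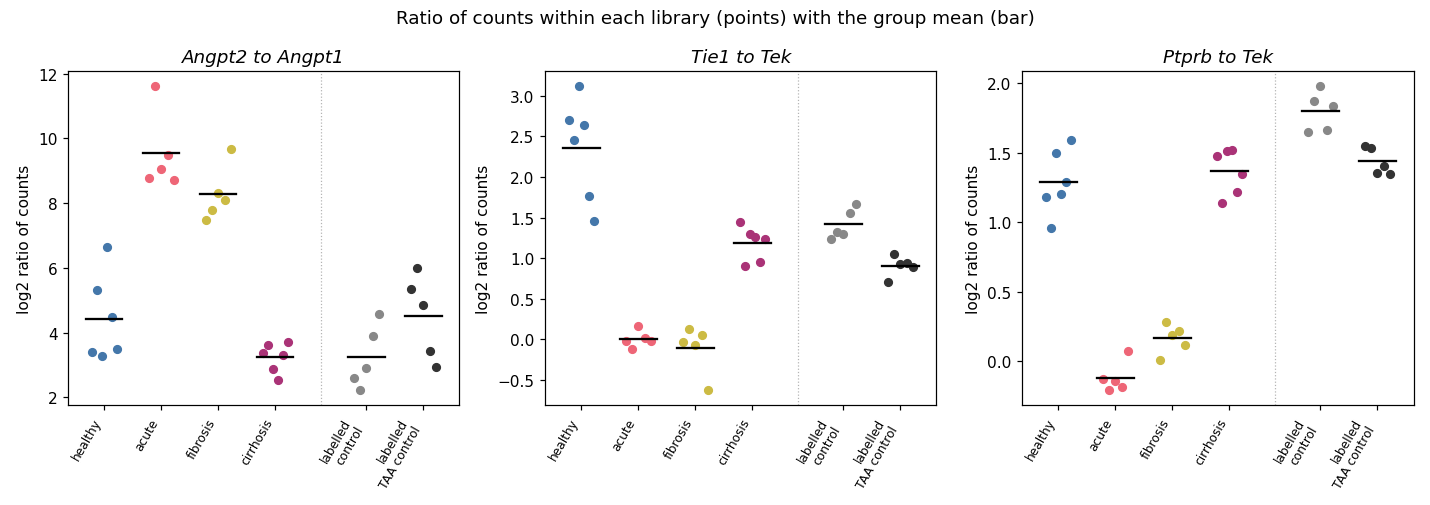
Log2 ratio of counts within each library (points) for Angpt2 to Angpt1, Tie1 to Tek and Ptprb to Tek, by group, with the group mean (bar); 0.5 was added to each count and the dotted line parts the CCl4 from the TAA experiment. Tie1 to Tek averages 2.36 in healthy, near 0 in acute and 1.18 in cirrhotic libraries.

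Tek, the Tie2 receptor, was lower than in health at 2 and 6 weeks. Healthy libraries ranged from 435 to 1024 CPM with a median of 570.3 CPM, libraries 5 and 6 being highest at 1024 and 904 CPM and the other 4 at 435 to 576 CPM. Acute libraries 1, 2, 3, 4 and 8 held 407, 497, 384, 445 and 324 CPM, and library 2 and library 4 overlapped the healthy range. Fibrosis libraries 12, 13, 15, 16 and 17 held 310.4, 343, 315, 295 and 369.7 CPM, all under the lowest healthy one. Cirrhotic libraries ranged from 597 to 923 CPM (median 739.8 CPM). The log2 fold change was -0.63 ± 0.22 in acute injury (limma-voom adjusted p = 0.0177), -0.92 ± 0.21 in fibrosis (adjusted p = 0.00145) and 0.20 ± 0.20 in cirrhosis, which was not called (adjusted p = 0.408). The fibrosis call was lost without TMM factors (-0.53, limma-voom adjusted p = 0.0602). The acute call was lost without healthy libraries 5 and 6, a choice made after seeing the data (-0.25, limma-voom adjusted p = 0.131), without library 5 alone (-0.52), library 6 alone (-0.44) or acute library 8 (-0.54), without TMM factors (-0.22, adjusted p = 0.439) or a low-count filter (-0.52, adjusted p = 0.0739), and, by the fold threshold, with library quality weights (-0.39) or DESeq2 size factors (-0.57).

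Tie1, the co-receptor, fell at all 3 stages. Healthy libraries ranged from 2492 to 4859 CPM with a median of 3287 CPM. Acute libraries 1, 2, 3, 4 and 8 held 399, 457, 428, 447 and 319 CPM, and fibrosis libraries 12, 13, 15, 16 and 17 held 303, 373, 300.5, 305 and 239 CPM. Those with cirrhosis held 1433 to 1859 CPM (median 1745 CPM), between and apart from the other groups. Tie1 was 7.98-fold lower in acute injury (log2 fold change -3.00 ± 0.17, limma-voom adjusted p = 1.97e-08), 10.5-fold lower in fibrosis (-3.40 ± 0.17, adjusted p = 1.04e-08) and 1.98-fold lower in cirrhosis (-0.98 ± 0.17, adjusted p = 0.000481). The log2 ratio of Tie1 to Tek counts was 1.46 to 3.12 in healthy, -0.12 to 0.16 in acute, -0.63 to 0.12 in fibrosis and 0.91 to 1.44 in cirrhotic libraries.

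Ptprb, the phosphatase that acts on Tie2, was low at the same stages. Healthy libraries ranged from 986 to 2731 CPM with a median of 1452 CPM, and libraries 5 and 6 were again highest at 2499 and 2731 CPM. After 2 weeks, libraries 1, 2, 3, 4 and 8 held 372, 430.4, 348, 391 and 341 CPM, and fibrosis libraries 12, 13, 15, 16 and 17 held 313, 417, 359.8, 344 and 401 CPM. In cirrhosis Ptprb ranged from 1710 to 2046 CPM (median 1922 CPM), within the healthy range. Ptprb was 4.10-fold lower in acute injury (log2 fold change -2.04 ± 0.25, limma-voom adjusted p = 1.34e-05) and 4.12-fold lower in fibrosis (-2.04 ± 0.26, adjusted p = 1.74e-05). In cirrhosis its difference of 0.28 ± 0.23 was not called (limma-voom adjusted p = 0.311). Without healthy libraries 5 and 6 Ptprb was called higher in cirrhosis, at 0.61 (limma-voom adjusted p = 0.00259), and likewise without TMM factors, at 0.62 (adjusted p = 0.0495).

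Apln, the apelin ligand, was the 1 gene called between every pair of CCl4 groups. Healthy libraries ranged from 11.8 to 29.2 CPM with a median of 14.1 CPM, and library 3 alone was above 16.3 CPM. Acute libraries 1, 2, 3, 4 and 8 held 140.1, 321, 94.4, 320.04 and 42.0 CPM, the widest spread of any group. Fibrosis libraries 12, 13, 15, 16 and 17 held 19.5, 45.3, 23.6, 31.6 and 21.96 CPM, of which the lowest 3 fell within the healthy range. In cirrhosis Apln ranged from 2.44 to 9.52 CPM (median 5.34 CPM), all under the lowest healthy one. Apln was 9.43-fold higher in acute injury (log2 fold change 3.24 ± 0.50, limma-voom adjusted p = 7.95e-05), 1.84-fold higher in fibrosis (0.88 ± 0.27, adjusted p = 0.0096) and 2.77-fold lower in cirrhosis (-1.47 ± 0.33, adjusted p = 0.00239). In a fit over all 4 CCl4 groups the fibrosis value of 0.82 was not called (limma-voom adjusted p = 0.0982).

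Aplnr, the apelin receptor, had few reads before cirrhosis. Healthy libraries held 0.137 to 0.506 CPM (median 0.413 CPM, 4 to 19 reads). Acute libraries 1, 2, 3, 4 and 8 held 0.0817, 0.245, 0.306, 0.184 and 0.221 CPM, and fibrosis libraries 12, 13, 15, 16 and 17 held 0.344, 0.343, 0.199, 0.115 and 0.554 CPM, with overlap between all 3 groups. Cirrhotic libraries ranged from 0.764 to 3.34 CPM (median 1.65 CPM), above every other CCl4 library. The receptor was 4.71-fold higher in cirrhosis than in health (log2 fold change 2.24 ± 0.45, limma-voom adjusted p = 0.00137), while in fibrosis its difference of -0.26 ± 0.46 was not called (adjusted p = 0.618). Mmrn1, a marker of lymphatic endothelium, was at 0.143 to 0.787 CPM in healthy and 65.5 to 307 CPM in cirrhotic libraries. The 6 lymphatic markers together, none of them at 0 throughout a group, summed to 1015 to 1555 CPM and 1503 to 3337 CPM in these groups. Their sum was 1461 to 2348 CPM in acute libraries, with Reln at 1305 to 2123 CPM. In fibrosis libraries it was 1284 to 1696 CPM, with Reln at 1174 to 1570 CPM. Of the 6, 4 were called higher in cirrhosis, where 27.1% of all genes tested were. Flt4 was called lower (log2 fold change -0.79) and Reln was not called (0.29). The part of lymphatic endothelium in the Aplnr result was not tested.

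Esm1, the secreted proteoglycan of tip cells, rose with Apln at 2 weeks and stayed high at 6 weeks. Healthy libraries varied widely, from 3.18 to 79.7 CPM with a median of 39.0 CPM. After 2 weeks, libraries 1, 2, 3, 4 and 8 held 299, 609, 399, 1026 and 278 CPM, and fibrosis libraries 12, 13, 15, 16 and 17 held 145, 503, 398, 334 and 292 CPM, all above the highest healthy one. In cirrhosis Esm1 ranged from 9.61 to 43.2 CPM (median 25.3 CPM), within the healthy range. Esm1 was 17.9-fold higher in acute injury (log2 fold change 4.16 ± 0.71, limma-voom adjusted p = 0.000173) and 12.3-fold higher in fibrosis (3.62 ± 0.70, adjusted p = 0.00053). Its difference of -0.30 ± 0.69 in cirrhosis was not called (limma-voom adjusted p = 0.722), and its sign turned without TMM factors (0.036), with library quality weights (0.25) and without healthy libraries 5 and 6 (0.21).

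**Figure D3:**
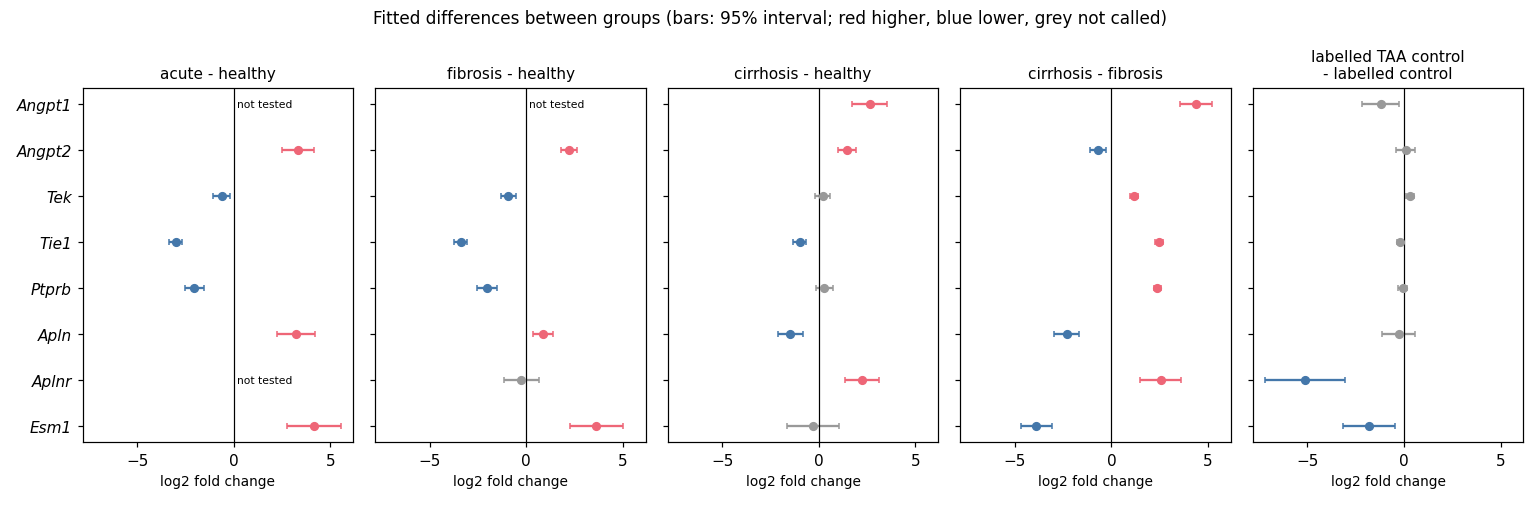
Log2 fold change of each gene (horizontal axis, limma-voom, bars 95% intervals) in 5 comparisons, with called rises in red, called falls in blue and the rest in grey. Cirrhosis against fibrosis shows 5 rises and 3 falls, while Tek, Ptprb and Esm1 are grey in cirrhosis against healthy.

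The stages were also compared with each other. Between 2 and 6 weeks, 6 of the 8 genes passed the filter and Apln alone was called, 4.96-fold lower in fibrosis (log2 fold change -2.31 ± 0.58, limma-voom adjusted p = 0.0204), where 0.732% of 13931 genes were called lower and 10.2% higher. Its groups overlapped at 1 point, since the lowest acute library (42.0 CPM) lay under the highest fibrosis library (45.3 CPM). Angpt2 differed by -1.08 ± 0.42 and was not called (limma-voom adjusted p = 0.0891), but was with edgeR (adjusted p = 0.0447) and DESeq2 (adjusted p = 0.00393). Tek, Tie1, Ptprb and Esm1 differed by -0.48 to 0.04 on the log2 scale, with adjusted p from 0.0744 to 0.762, which does not show that they were alike.

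From fibrosis to cirrhosis all 8 genes were called, 5 higher and 3 lower, where 34.3% of 15186 genes were called higher and 29.5% lower. Angpt1 and Aplnr, which failed the filter between 2 and 6 weeks, passed here and against acute injury by their cirrhotic reads. Being tested thus already favoured a rise of these genes. Tie1 was 5.54-fold, Ptprb 5.20-fold, Tek 2.26-fold, Aplnr 5.90-fold and Angpt1 20.6-fold higher in cirrhosis, with limma-voom adjusted p from 5.7e-10 to 0.000903. The Angpt1 value rests on 1 to 5 reads in each fibrosis library. Esm1 was 14.7-fold lower (log2 fold change -3.88 ± 0.41, limma-voom adjusted p = 2.95e-06), Apln 4.95-fold lower and Angpt2 1.60-fold lower (-0.68 ± 0.21, adjusted p = 0.0102). The Angpt2 call was lost without cirrhotic library 4 (-0.57) or 5 (-0.56), whose change stayed under the fold threshold, and in a fit over all 4 groups (adjusted p = 0.0664). Against acute injury the same 5 genes were higher in cirrhosis and the same 3 lower, where 37.5% and 31.8% of 15005 genes were called, with fold differences from 1.81 for Tek to 25.6 for Apln. Both comparisons share the 6 cirrhotic libraries.

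In cirrhosis the apelin ligand was lower and its receptor higher than in health, and other genes of the apelin system were called in both directions. Of 10 listed, 9 were found; 4 were called lower and none higher among 7 tested in acute injury (median log2 fold change -0.89, against -0.09 over all genes tested), as in fibrosis (-0.78, against -0.03). In cirrhosis 4 of 8 were higher and 3 lower (0.29, against 0.07). Over all genes tested, 35.5% were called higher and 37.9% lower in acute injury, 35.3% and 34.9% in fibrosis, and 27.1% and 24.7% in cirrhosis. Arrb1 and Arrb2, the beta-arrestins that take up activated receptors, fell at all 3 stages, by 2.51 and 3.30 on the log2 scale at 2 weeks and by 0.90 and 0.90 in cirrhosis, with limma-voom adjusted p from 2.83e-08 to 0.00106 in those 2 comparisons. Gnai1, an inhibitory G protein subunit, rose by 1.32 in cirrhosis (adjusted p = 0.00498).

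On the Tie2 side, 19 of 20 listed genes of receptor signalling were found and tested. In acute injury 6 were called higher and 8 lower (median log2 fold change -0.44, against -0.09 over all genes tested). In fibrosis 6 and 7 were called (-0.59, against -0.03), and in cirrhosis 7 and 6 (0.06, against 0.07). The shares of all genes called higher and lower were 35.5% and 37.9% in acute injury, 35.3% and 34.9% in fibrosis, and 27.1% and 24.7% in cirrhosis. Pik3ca, a catalytic subunit of the PI3 kinase downstream of Tie2, rose by 2.99 on the log2 scale in acute injury (limma-voom adjusted p = 3.33e-06), while Nos3, the endothelial nitric oxide synthase, fell by 4.93 (limma-voom adjusted p = 4.71e-09). Grb7, an adaptor protein, fell by 5.93 in acute injury (adjusted p = 0.000592), beside the fall in hepatocyte markers given above. In cirrhosis Nos3 fell by 1.32 (adjusted p = 0.00038), and Svep1, a matrix protein known to bind Tie1, rose by 1.57 (adjusted p = 0.0111).

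The angiopoietin-like genes, secreted proteins of related structure that do not bind Tie2, included none called higher at 2 or 6 weeks. The list also held Angpt4, which is a Tie2 ligand, was not tested and was at 0.0389 to 0.143 CPM in healthy libraries. Of 8 listed, Angpt4 included, 7 were found and 5 tested. Of these 5, 4 were lower in acute injury (median log2 fold change -3.57, against -0.09), 2 in fibrosis (-1.03, against -0.03) and none in cirrhosis (0.41, against 0.07), where Angptl2 rose by 1.06 (limma-voom adjusted p = 0.00767). Angptl6 fell by 4.98 in acute injury (adjusted p = 4.47e-06). Among all genes tested, 35.5% were called higher and 37.9% lower in acute injury, 35.3% and 34.9% in fibrosis, and 27.1% and 24.7% in cirrhosis.

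Other tip cell genes were called in both directions. Of 15 listed, 14 were found and tested. In acute injury 3 were called higher and 7 lower (median log2 fold change -0.62, against -0.09 over all genes tested). The counts were 3 and 6 in fibrosis (-0.42, against -0.03) and 3 and 4 in cirrhosis (0.17, against 0.07). All genes tested were called higher and lower at 35.5% and 37.9% in acute injury, 35.3% and 34.9% in fibrosis, and 27.1% and 24.7% in cirrhosis. Adm, the vascular peptide adrenomedullin, rose by 4.34 in acute injury (limma-voom adjusted p = 1.06e-08) and fell by 1.005 in cirrhosis (adjusted p = 0.00144). Nid2, a basement membrane protein, rose by 2.77 in acute injury (adjusted p = 7.62e-06). Dll4, the Notch ligand of tip cells, fell by 5.92 (adjusted p = 1.23e-09) and Igfbp3, a binding protein of insulin-like growth factors, by 4.65 in acute injury (adjusted p = 1.73e-07).

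**Figure D4:**
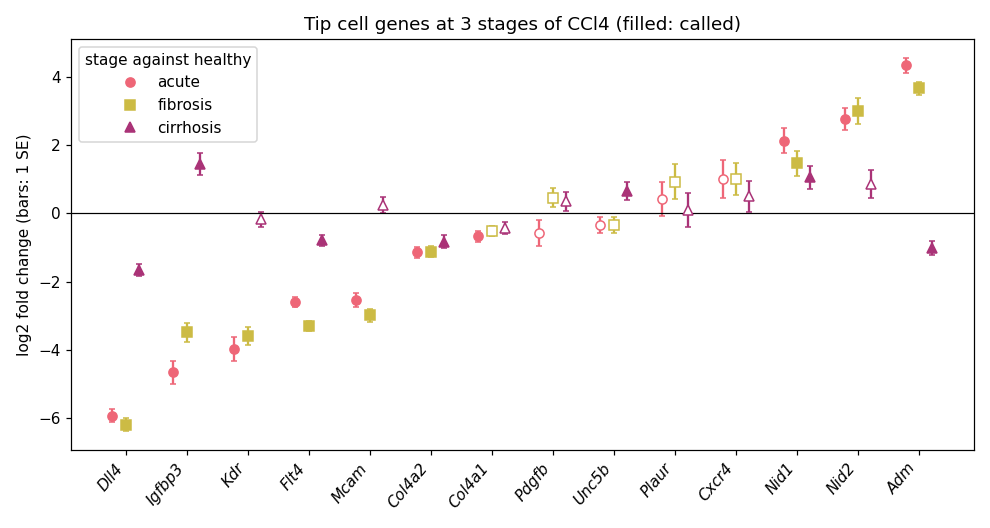
Log2 fold change against healthy LSECs (vertical axis, limma-voom, bars 1 SE) of the 14 listed tip cell genes found, ordered by their value in acute injury, for acute (circles), fibrosis (squares) and cirrhosis (triangles), filled where called. Adm and Dll4 mark the ends in acute injury, at 4.34 and -5.92, and Igfbp3 turns from a fall to a rise of 1.45 in cirrhosis.

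Over the 22 CCl4 libraries, the genes nearest to each member in log2 CPM were described by Pearson's r among 13473 genes, with no test, since libraries of a group share their stage. Tie1 was nearest to Lamb2 (0.996), Ece1 (0.993) and Pde2a (0.993), and Ptprb to Adgrf5 (0.990), Klhl13 (0.988) and Scarb2 (0.987). Tek was nearest to Wdpcp (0.954), Fam117b and Tead4 (0.952 each). Angpt1 followed Sh3kbp1 (0.956), Lrrk2 (0.946) and Fam163b (0.935), and Aplnr followed Mctp1 (0.922), Ebf1 (0.911) and Adgrg3 (0.903). Angpt2 had Rwdd1 (0.919), Leo1 (0.915) and Me2 (0.914) nearest, Apln had Emg1 (0.925), Stt3a (0.921) and Cdpf1 (0.917), and Esm1 had Kmt2d (0.939), Lsm8 (0.935) and Znf442 (0.934). Among the members, Tek and Ptprb had an r of 0.932, which was 0.876 after each group's mean was removed, and Apln and Esm1 one of 0.802 and 0.484. Healthy libraries 5 and 6 were the highest healthy ones for both Tek and Ptprb, and no r was computed without them. Tie1 and Ptprb had an r of 0.892 over all libraries and 0.031 once group means were removed.

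In the TAA experiment 2 of the 8 genes were called, both lower in the group labelled TAA control, where 14.9% of 14376 genes were called lower and 12.7% higher. Summed LSEC markers were 19785 to 24995 CPM in the group labelled control and 25622 to 32710 CPM in the other, and immediate-early genes 12901 to 26591 and 46095 to 68391 CPM. Within a group, TAA control libraries 14 and 15 were the most alike, with a chi-square per degree of freedom of 2.96 where the next pair had 23.6. This was above counting error and both were kept, though whether they are separate isolations was not tested.

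Aplnr had the largest fitted difference of the 8. Libraries 1 to 5 of the group labelled control held 2.11, 9.92, 11.1, 4.54 and 12.5 CPM, and libraries 10, 12, 13, 14 and 15 of the group labelled TAA control held 0.102, 0.234, 0.198, 0.237 and 0.159 CPM, or 3 to 7 reads. Aplnr passed the low-count filter by its reads in the group labelled control, so that being tested already favoured a fall. The groups did not overlap, and Aplnr was 34.7-fold lower in the group labelled TAA control (log2 fold change -5.12 ± 1.06, limma-voom adjusted p = 0.00241). With libraries 14 and 15 averaged and counted as 1, it was -5.14 (adjusted p = 0.00648). Beside it, Mmrn1 was at 111 to 393 CPM in the group labelled control and 0.300 to 2.55 CPM in the other, the 6 lymphatic markers summed to 1718 to 4160 and 992 to 1365 CPM, and 13 stellate and mural markers to 2983 to 6461 and 548 to 943 CPM. Of these markers, 5 lymphatic and 10 stellate and mural ones were called lower, where 14.9% of all genes tested were. Among the lymphatic ones Flt4 was not called (log2 fold change 0.37). The part of lymphatic, stellate and mural cells was not tested.

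Esm1 varied within both groups. The libraries labelled control held 35.9, 204, 198, 123 and 212 CPM, library 1 being far under the other 4. Those labelled TAA control held 40.6, 168, 40.6, 15.2 and 15.3 CPM, library 12 being far above the other 4, so that the groups overlapped. The log2 fold change of -1.81 ± 0.68 (limma-voom adjusted p = 0.0466) was not called with edgeR (-1.46, adjusted p = 0.0976), with DESeq2 (-1.48, adjusted p = 0.0756), with libraries 14 and 15 averaged (-1.51, adjusted p = 0.102), or in 8 of the 10 fits that left out 1 library each, where adjusted p rose to as much as 0.102. Only leaving out control library 1 or TAA control library 12 kept the call.

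The other 6 genes were not called by label. Angpt1 held 2.43, 5.54, 2.68, 1.62 and 1.43 CPM in the libraries labelled control and 0.577, 0.567, 0.922, 1.82 and 2.35 CPM in those labelled TAA control, with overlap (log2 fold change -1.21 ± 0.48, limma-voom adjusted p = 0.0575). DESeq2 called it (-1.16, adjusted p = 0.0414), as did the limma-voom fit with libraries 14 and 15 averaged (-1.44, adjusted p = 0.0427). Tek was at 705 ± 112 and 867 ± 76.8 CPM (SD, n = 5 each), and its difference of 0.30 (limma-voom adjusted p = 0.0414) stayed under the fold threshold. Tie1 was at 1867 ± 146 and 1616 ± 136 CPM, Ptprb at 2457 ± 348 and 2361 ± 332, Angpt2 at 24.0 ± 7.43 and 25.3 ± 7.70, and Apln at 13.7 ± 6.21 and 10.8 ± 5.04 CPM. The log2 differences of these 4 had 95% intervals of -0.38 to -0.05, -0.30 to 0.18, -0.39 to 0.56 and -1.15 to 0.59.

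By label, 5 of 5 angiopoietin-like genes tested were lower in the group labelled TAA control (median log2 fold change -1.97, against 0.03 over all genes tested), as were 8 of 14 tip cell genes, with 3 higher (-0.998). Of 9 apelin system genes 3 were lower and 1 higher (-0.28), and of 19 genes of Tie2 signalling 4 were lower and 1 higher (-0.16). Beside these, 7 of 10 hepatocyte markers were lower in the group labelled TAA control, with sums of 1689 to 4564 CPM in the group labelled control and 487 to 1183 CPM in the other, and their part was not tested. Of all genes tested, 14.9% were called lower and 12.7% higher by label. Svep1 fell by 4.07 (limma-voom adjusted p = 1.35e-05). Mme, the peptidase neprilysin, was called lower, being at 0 in every library labelled TAA control and at 0.358 to 1.13 CPM in the others, and no fold is given for it.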

How the data were processed

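RNA of rat LSECs was sequenced in 32 libraries. Per the labels and the study's methods, the authors made strand-specific poly(A) libraries, used STAR to map reads to Rnor_6.0, and RSEM to estimate reads per gene. The values the authors deposited are expected counts, not always whole (10.3% to 12.4% of genes per library were fractional), neither normalized nor pooled. Genes that share reads with similar copies are less certain.

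Symbols were read from the gene names, after the Ensembl identifier. Counts were rounded, filtered with filterByExpr and fitted with limma-voom and TMM factors, as the study's methods name, with the libraries of 2 groups per fit and no covariate (R 4.3.3, limma 3.58.1, edgeR 4.0.16). The study's own threshold, an unadjusted p, was an alternative. So were edgeR's quasi-likelihood test, DESeq2 1.42.0, other filters, scalings and weights, one fit over the CCl4 groups, a replicate block and leaving out each library. The script was tested on simulated data. The cirrhotic libraries' labels give no duration, and 12 to 14 weeks is from the study's text. Libraries are numbered by their titles, which differ from the descriptions in 4 of the 5 labelled TAA control.

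All 8 members are named, then at most 2 called rises and falls per list and comparison, and the 3 genes nearest to each member (log2 CPM, 0.5 added). Mmrn1, Reln, Pdgfrb, Erg, Cdh5 and Angpt4 were chosen after their values were seen. The members and lists were chosen with earlier results of these data known. List genes not matched to 1 row by symbol are not analysed here. Some items withheld for evaluation are not reported here. Plots were made in matplotlib 3.10.9 (Python 3.11.15).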

Additional observations from a re-analysis of the deposited data

Results flagged for a closer look

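In 2 of the 48 sets of 5 or 6 libraries (8 genes in 6 groups), 1 library stood apart by Dixon's test at the 95% level, where chance gives 2.4. Healthy library 3 had 29.2 CPM of Apln, and library 12 of the group labelled TAA control had 168 CPM of Esm1.

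Levels of the members differed between stages by a direct test of the stages (limma-voom, log2 fold change). Apln was lower in fibrosis than in acute injury, at -2.31. Cirrhosis differed from fibrosis in Angpt1 (4.36), Angpt2 (-0.68), Tek (1.17), Tie1 (2.47), Ptprb (2.38), Apln (-2.31), Aplnr (2.56) and Esm1 (-3.88). From acute injury it differed in Angpt1 (4.46), Angpt2 (-1.82), Tek (0.86), Tie1 (2.04), Ptprb (2.35), Apln (-4.68), Aplnr (3.07) and Esm1 (-4.44). Angpt1 in acute injury and fibrosis, and Aplnr in acute injury, were too low to be tested against healthy. Both passed the filter here by their cirrhotic reads, so that being tested already favoured a rise.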

How the results depend on the processing

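Of the log2 fold changes of the 8 genes recomputed with 1 choice altered (healthy libraries 5 and 6 both left out being one such choice), 571 kept direction and side of the threshold, 12 became called, 13 lost the call and 6 changed sign. With 1 library left out these numbers were 535, 3, 13 and 4. The values that changed sign were those of Aplnr in fibrosis against healthy (0.13 without TMM, 0.041 without fibrosis library 16), Esm1 in cirrhosis against healthy (0.25 with quality weights, 0.036 without TMM, 0.21 without healthy libraries 5 and 6), Ptprb in fibrosis against acute (-0.038 in one fit, -0.021 without TMM, -0.004 without fibrosis library 13) and Angpt2 by TAA label (-0.074 without control library 1, -0.067 without TAA control library 12). None of these was called. Leaving out 1 library, they ranged from -0.518 to 0.041 (Aplnr), -0.004 to 0.094 (Ptprb) and -0.074 to 0.241 (Angpt2). Genes called between fibrosis and acute went from 1 to 2 with edgeR, DESeq2, one fit, quality weights and unadjusted p. By TAA label they went from 2 to 1 with edgeR and without a filter. Other settings added a call by TAA label, namely Angpt1 without TMM (-1.25, limma-voom adjusted p = 0.0499) or with unadjusted p. Tek was added without a fold-change threshold. Leaving out 1 library gave 5 to 7 called in acute against healthy, 6 to 6 in fibrosis and 5 to 5 in cirrhosis, 1 to 2 between fibrosis and acute, 7 to 8 and 8 to 8 for cirrhosis against fibrosis and acute, and 1 to 2 by TAA label. The cause of these changes was not tested. Healthy, acute and cirrhotic titles reuse the same numbers, and the deviations of same-numbered libraries had correlations of -0.22 to 0.25. Correlations between differently numbered libraries were not computed, so whether the numbers pair the libraries was not settled. With the number as a replicate block, 5 genes were called in acute against healthy (Tek lost, -0.28, limma-voom adjusted p = 0.083), 5 in cirrhosis against healthy and 8 in cirrhosis against acute. Without TMM the median log2 fold change of all genes rose by 0.41, 0.40 and 0.35 in acute, fibrosis and cirrhosis against healthy, and fell by 0.11 in cirrhosis against fibrosis. Upper-quartile factors raised it by 0.14 in cirrhosis against healthy and 0.18 in cirrhosis against acute. Counts of 1 to 36 for Angpt1 and 3 to 19 for Aplnr limit what could be tested in the CCl4 groups other than cirrhosis.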
